A study of Mus musculus with 18 samples.

Results

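The 10 genes described here encode proteins stored in the granules of neutrophils, out of 55487 genes in each deposited table. They were given as a list in 3 sets: Mpo, Elane, Prtn3 and Ctsg for primary (azurophil) granules, Ltf, Camp, Ngp and Lcn2 for secondary (specific) granules, and Mmp8 and Mmp9 for tertiary (gelatinase) granules. They were chosen by their transcript levels in the 6 organs, bone marrow against blood above all, so those levels are given as a description and carry no test. All 10 passed the filter on low values, a group mean of 1 TPM or more in any organ (TPM is a level corrected for transcript length and scaled to the same total in each library). The RNA came from CD4+Foxp3+ regulatory T (Treg) cells, a CD4+ T cell lineage that restrains immune responses, sorted without culture from peripheral blood, bone marrow, spleen, lymph node, liver and lung. Each of the 6 groups held 3 libraries, 18 in all, and all groups were wild-type mice without treatment. No sort gate, sex, age or number of mice per library is given in the labels. The labels also do not say that replicates were separate animals, so every p-value below measures the spread between these libraries, which may be technical.

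Neutrophils mature in the bone marrow through stages that each make one kind of granule. Promyelocytes transcribe the serine proteases and myeloperoxidase of primary granules, myelocytes and metamyelocytes the antimicrobial proteins of secondary granules, and band cells the matrix metalloproteinases of tertiary granules. The transcripts of the early stages are largely lost before the cell enters the blood, while the proteins stay in the granules. T cells are not known to make these granules. MMP8 protein is often placed in specific granules as well, so its place among the tertiary genes follows the given list.

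In the GENCODE M21 annotation of GRCm38 (mm10), members of a stage lay in part close to each other. Prtn3 (chr10:79874476-79883174, plus strand) ended 3.07 kb before Elane (chr10:79886247-79888215, plus strand). On chromosome 9, Camp (chr9:109847379-109849617, minus strand) lay 570.13 kb from Ngp (chr9:110419747-110423012, plus strand), which lay 596.26 kb from Ltf (chr9:111019271-111042767, plus strand). Mmp8 was on the same chromosome but far away (chr9:7558456-7568485, plus strand). The others were Mpo (chr11:87793581-87804413, plus strand), Ctsg (chr14:56099881-56102574, minus strand), Lcn2 (chr2:32384633-32388252, minus strand) and Mmp9 (chr2:164940780-164955850, plus strand). RefSeq promoter windows on GRCm38.p6, which run from 250 bases before to 50 bases after the start, were matched by symbol for 9 of the 10 members, all except Mmp9.

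Sequences upstream of the start are shown for Elane, Prtn3, Ctsg, Ltf, Ngp and Mmp8, so that genes of each stage can be compared letter by letter. They are the RefSeq windows on GRCm38.p6, cut back to end before the first GENCODE base of the coding transcript, written 5′ to 3′ on the gene's strand. Capitals mark GAGGAA, a core bound by ETS factors such as PU.1, GCAAT, the inner part of a C/EBP site, and TATAA, each on either strand. The stretches are Elane chr10:79886062-79886246 (plus), Prtn3 chr10:79879417-79879613 (plus), Ctsg chr14:56102575-56102824 (minus), Ltf chr9:111019042-111019270 (plus), Ngp chr9:110419558-110419746 (plus) and Mmp8 chr9:7558179-7558428 (plus). That of Prtn3 lies within the annotated span of its own locus, which begins further upstream, and the others lie outside the annotated span of the gene they belong to.
Elane: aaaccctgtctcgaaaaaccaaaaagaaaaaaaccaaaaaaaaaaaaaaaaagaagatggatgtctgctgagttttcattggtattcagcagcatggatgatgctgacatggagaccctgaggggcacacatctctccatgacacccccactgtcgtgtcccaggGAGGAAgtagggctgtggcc
Prtn3: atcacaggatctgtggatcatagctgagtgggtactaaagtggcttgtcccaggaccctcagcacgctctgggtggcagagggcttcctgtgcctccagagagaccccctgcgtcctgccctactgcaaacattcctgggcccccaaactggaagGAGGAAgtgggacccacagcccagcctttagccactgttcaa
Ctsg: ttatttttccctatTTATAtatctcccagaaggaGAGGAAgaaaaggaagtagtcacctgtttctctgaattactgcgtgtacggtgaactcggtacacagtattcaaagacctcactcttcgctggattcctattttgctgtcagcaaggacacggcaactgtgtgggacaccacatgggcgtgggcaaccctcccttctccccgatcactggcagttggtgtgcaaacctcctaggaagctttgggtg
Ltf: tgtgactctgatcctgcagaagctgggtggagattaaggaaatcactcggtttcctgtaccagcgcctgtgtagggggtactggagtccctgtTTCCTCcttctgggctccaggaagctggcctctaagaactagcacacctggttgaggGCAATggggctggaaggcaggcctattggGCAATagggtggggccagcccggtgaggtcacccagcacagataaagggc
Ngp: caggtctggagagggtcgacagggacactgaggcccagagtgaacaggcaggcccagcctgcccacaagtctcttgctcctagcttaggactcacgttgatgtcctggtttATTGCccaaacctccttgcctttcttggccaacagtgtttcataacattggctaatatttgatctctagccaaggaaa
Mmp8: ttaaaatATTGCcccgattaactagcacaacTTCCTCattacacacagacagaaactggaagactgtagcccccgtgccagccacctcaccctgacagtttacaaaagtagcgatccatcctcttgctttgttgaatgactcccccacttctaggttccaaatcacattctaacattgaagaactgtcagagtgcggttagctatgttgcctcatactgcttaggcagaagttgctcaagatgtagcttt

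In the full windows of 300 bases, searched on both strands, GAGGAA was found in 7 of the 9 members with an entry, including all 4 primary granule genes, and in 28.3% of 27025 promoters of that length. GCAAT was found in 7 of 9 members and 26.5% of all promoters, and the longer TTGCNNAA in 4 of 9 and 10.8%. The last 2 can overlap, as they do in the Ngp stretch above. TTGCNNAA was present in Ltf, Ngp, Lcn2 and Mmp8 and in none of the 4 primary granule genes. TATAA was found in 4 of 9 members and 25.5% of promoters, and TGTGGT, a core bound by RUNX factors, in 2 of 9 and 16.9%. These matches are letters in a window and describe no bound site.

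TPM keeps no read depth, but the steps between low values placed 1 read on a transcript of 1 kb at about 0.383 TPM in liver, 0.236 in lung, 0.16 in spleen, 0.118 in bone marrow, 0.0897 in lymph node and 0.0842 in blood. A level below 1 TPM in liver or lung therefore rests on few reads. Foxp3, the gene that defines the sorted cells, was lowest in blood at 88.6 ± 3.39 TPM (SD, n = 3) and stood at 148 ± 3.08 in bone marrow and at a mean of 239 in lymph node. Csf3r, the receptor for the neutrophil growth factor G-CSF, was present at 730 ± 37.3 TPM in blood and 145 ± 2.18 in bone marrow and at a mean of 0.22 in lymph node. In bulk RNA, fewer cells of a type and less RNA per cell cannot be told apart.

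The 4 primary granule genes were between 120 and 546 TPM in bone marrow and between 0.81 and 10.6 TPM in blood. Mpo, which makes hypochlorous acid from hydrogen peroxide, stood at 542.12, 517.38 and 545.52 TPM in bone marrow replicates 1, 2 and 3 and at 2.59, 3.81 and 3.22 in the blood replicates. Elane, the gene of neutrophil elastase, stood at 359.79, 375.79 and 363.48 TPM in bone marrow and at 1.98, 2.64 and 2.48 in blood. For both genes every bone marrow library lay far above every blood library, with a ratio of group means of 167 for Mpo and 155 for Elane. Prtn3, which encodes proteinase 3 next to Elane, stood at 273.08, 280.54 and 267.44 TPM in bone marrow and at 6.49, 10.57 and 10 in blood, a ratio of means of 30.3. Ctsg, which encodes the serine protease cathepsin G, stood at 126.69, 123.11 and 120.15 TPM in bone marrow and at 0.81, 1.34 and 1.27 in blood, a ratio of 108. Prtn3 thus had the highest blood level of the primary set, although Mpo and Elane exceeded it in bone marrow. This order per length was the same in all 3 libraries of each group.

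Secondary granule genes reached the highest levels of the 10. Ngp, a cystatin-like granule protein, stood at 5348.42, 5270.65 and 5271.66 TPM in bone marrow and at 60.81, 67.41 and 63.14 in blood. Ltf, which encodes the iron-binding protein lactoferrin, stood at 2179.81, 2307.41 and 2362.83 TPM in bone marrow and at 31.04, 39.34 and 20.7 in blood. The groups of both genes lay well apart, with ratios of means of 83.0 for Ngp and 75.2 for Ltf. Camp, the precursor of the antimicrobial peptide cathelicidin, stood at 1891.8, 2018.41 and 2082.62 TPM in bone marrow and at 18.25, 19.45 and 18.42 in blood, a ratio of 107. Lcn2, which encodes a lipocalin that binds bacterial siderophores, stood at 2166.37, 2181.25 and 2130.4 TPM in bone marrow and at 181.46, 194.59 and 181.69 in blood, a ratio of 11.6. Lcn2 was close to Ltf and Camp in bone marrow but above every other secondary gene in each blood library.

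The tertiary pair behaved differently between the same libraries. Mmp8, neutrophil collagenase, stood at 224.63, 215.53 and 208.74 TPM in bone marrow and at 104.03, 94.87 and 102.29 in blood. The bone marrow libraries were all higher, but the ratio of means was 2.15. Mmp9, gelatinase B, stood at 373.65, 362.41 and 372.93 TPM in bone marrow and at 351.31, 370.93 and 365.5 in blood. These 2 groups overlapped, with a ratio of means of 1.02, and the overlap ended when bone marrow replicate 2 was left out. In bone marrow Mmp9 had about the level of Elane, while in blood it was the highest of the 10 genes.

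**Figure D1:**
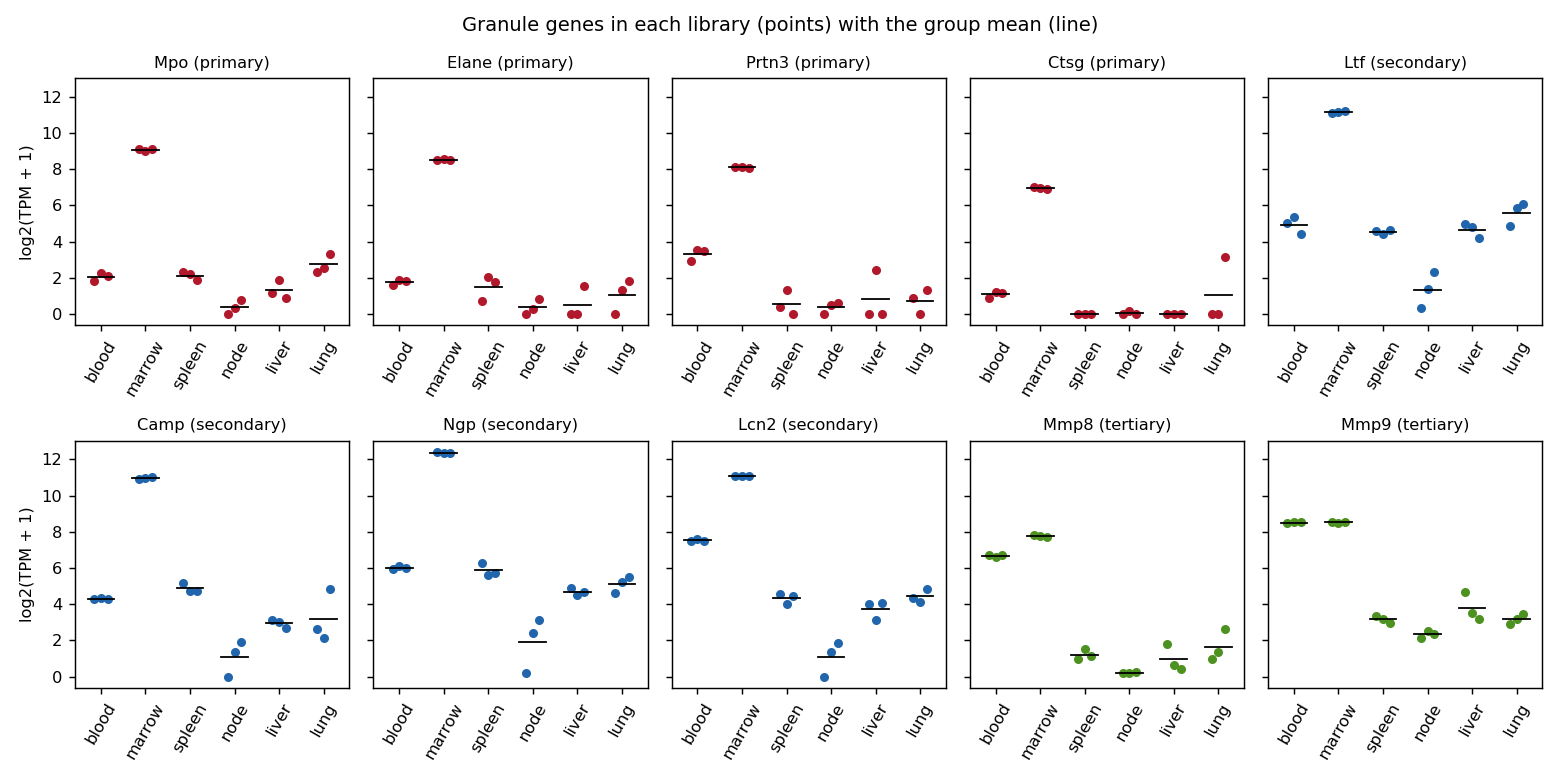
Levels of the 10 granule genes as log2(TPM + 1) in each of the 18 libraries (points, replicates 1 to 3 from left to right) by organ, with the group mean of the log2 values as a line and the stage in color. Bone marrow is far above blood for the primary and secondary genes, 2.15 times above it for Mmp8, and level with it for Mmp9.

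On the log2(TPM + 1) scale, which understates the differences of low genes, and with a standard error (SE) pooled over the 6 groups, bone marrow minus blood was 7.003 (SE 0.29) for Mpo, 6.77 (SE 0.48) for Elane, 4.80 (SE 0.55) for Prtn3 and 5.87 (SE 0.57) for Ctsg. For the secondary genes it was 6.23 (SE 0.40) for Ltf, 6.66 (SE 0.53) for Camp, 6.35 (SE 0.48) for Ngp and 3.53 (SE 0.36) for Lcn2. It was 1.10 (SE 0.37) for Mmp8 and 0.03 (SE 0.27) for Mmp9. The pooled SE carries the spread of the organs with low levels, and with bone marrow and blood alone in the fit it was 0.05 for Mmp8 and 0.03 for Mmp9. The stage medians were 6.32 for primary, 6.29 for secondary and 0.56 for tertiary genes, where the median over all 16694 genes tested was 0.11. Primary and secondary genes were therefore alike in their medians on this scale. The 2 with the smallest differences in these sets were Lcn2 and Prtn3. Without the added 1 the sets were less alike. As a percentage of each gene's bone marrow mean, blood replicates 1, 2 and 3 had primary medians of 0.599%, 0.904% and 0.853%. The secondary medians were higher in each library, at 1.25%, 1.498% and 1.057%. Single genes overlapped, with ratios of mean TPM from 30.3 (Prtn3) to 167 (Mpo) and from 11.6 (Lcn2) to 107 (Camp). For 9 of the 10 members all 3 bone marrow libraries were above all 3 blood libraries, an arrangement found in 35.6% of all genes tested, and that contrast chose the members.

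The direction of 1 member, Mmp9, depended on the scale. When each library was scaled to its geometric mean over 20 general T cell genes, the median of all genes moved from 0.11 to -0.31 and every member fell with it. The stage medians were then 6.06, 5.80 and 0.0599, and Mmp9 was lower in bone marrow, at -0.48. Bone marrow minus blood for Mmp8 was 0.60 on that scale.

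**Figure D2:**
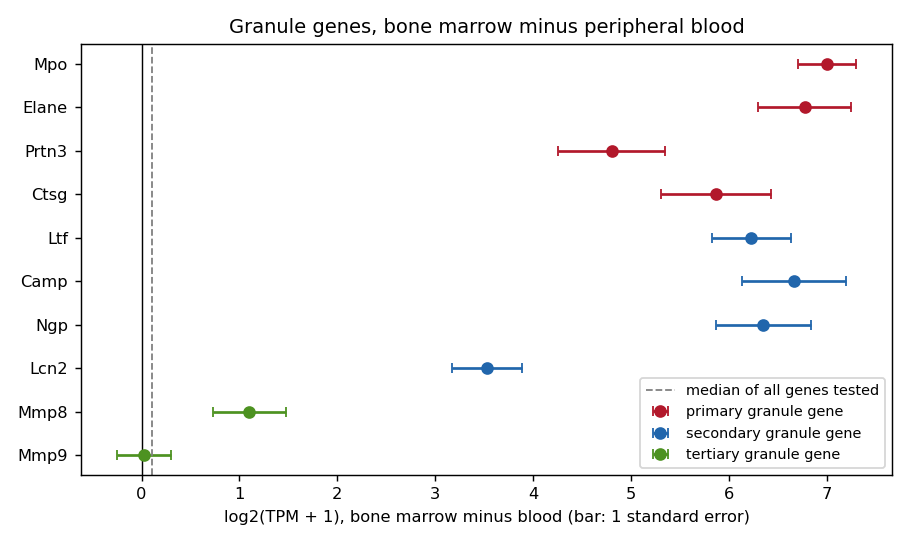
Difference in log2(TPM + 1) between bone marrow and blood for each of the 10 genes (x axis), with 1 standard error as the bar, the stage in color and the median over all genes tested (0.11) as a dashed line. The primary and secondary genes lie between 3.53 and 7.003, Mmp8 at 1.10 and Mmp9 at 0.03.

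The make-up of the granule transcripts by stage differed in turn. Summed over the 10 genes, bone marrow held 13622 ± 123 TPM (SD, n = 3) and blood 777 ± 24.3. Secondary genes made up 86.2% ± 0.221 of that sum in bone marrow and 38.4% ± 1.46 in blood. Tertiary genes made up 4.30% ± 0.116 in bone marrow and 59.6% ± 1.54 in blood. Primary genes made up 9.53% ± 0.107 in bone marrow and 2.02% ± 0.394 in blood. The 3 libraries of each group were close to each other, and no share overlapped between the 2 groups. In TPM, the tertiary sum was of one order in both organs, 586 ± 10.8 in bone marrow and 463 ± 6.69 in blood, while the primary sum was 1298 ± 2.87 against 15.7 ± 3.42. A high secondary share was not particular to bone marrow. It was 89.1% ± 2.93 in spleen, 79.1% ± 5.50 in liver and 85.2% ± 2.84 in lung, over mean sums of 145, 88.8 and 139 TPM. In lymph node it was 48.0% ± 32.9.

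**Figure D3:**
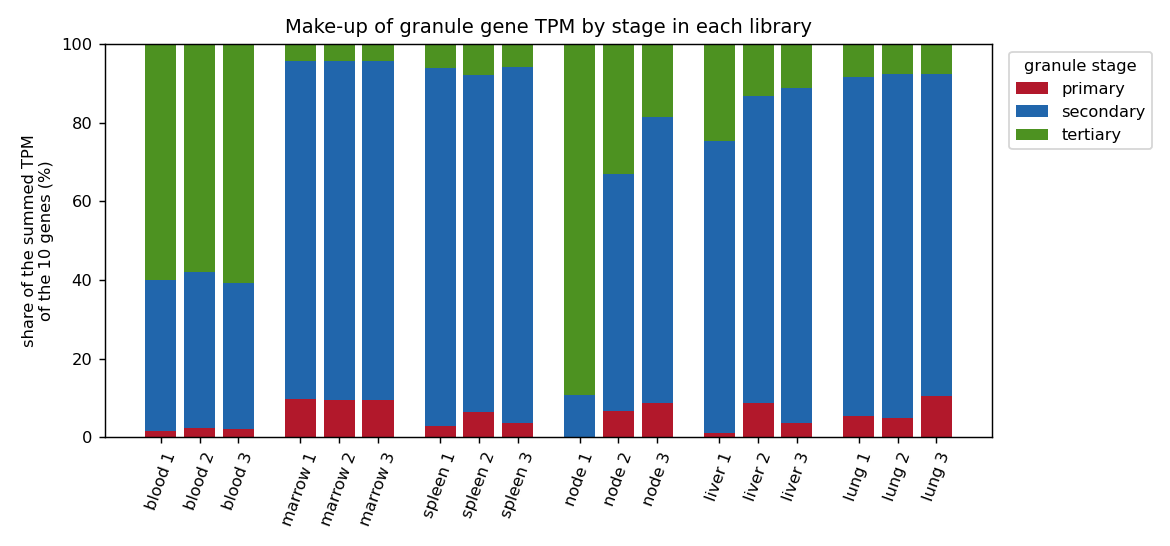
Share (y axis, %) of the summed TPM of the 10 genes that fell to primary, secondary and tertiary granule genes in each of the 18 libraries (x axis). Tertiary genes make up 59.6% of the sum in blood and 4.30% in bone marrow, and lymph node libraries vary most, over sums of 3.93 to 23.4 TPM.

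A second way to set the stages side by side is to divide by S100a8, an abundant cytosolic protein gene of maturing and circulating neutrophils, which is no member and stood at 7184 ± 341 TPM in blood and 12866 ± 153 in bone marrow. Since TPM is per length, the ratio compares transcripts. In bone marrow Ngp stood at 41.2% ± 0.428 of S100a8 and in blood at 0.891% ± 0.0881. Lcn2 was at 16.8% ± 0.375 in bone marrow and 2.59% ± 0.219 in blood. Mpo was at 4.16% ± 0.0709 and 0.045% ± 0.0106. Mmp8 differed least by this measure, at 1.68% ± 0.0628 in bone marrow and 1.40% ± 0.0302 in blood, and the libraries of the groups did not overlap. Mmp9 was the one member higher per S100a8 in blood, at 5.06% ± 0.377 against 2.87% ± 0.0148, again with no overlap. That direction depends on the gene divided by, since S100a8 itself had the higher mean in bone marrow. Csf3r went the other way, at 145 ± 2.18 TPM in bone marrow and 730 ± 37.3 in blood, and would place Mmp9 higher in bone marrow. Which gene better follows the neutrophil content was not tested.

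Outside bone marrow the members split into those where blood stood above the other organs and those where it did not. All 3 bone marrow libraries were above the 15 others for every member except Mmp9, as for 5.28% of all genes tested. Blood lay above all 12 libraries of spleen, lymph node, liver and lung for Prtn3, Lcn2, Mmp8 and Mmp9, as for 12.2% of genes. Lcn2 reached at most 27.67 TPM in those 12 libraries, Mmp8 5.17, Mmp9 24.53 and Prtn3 4.47. For the other 6 members blood overlapped with at least 1 of these organs or lay below one.

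The primary genes were near the floor in the 4 solid organs. Mpo stood at 3.92, 3.58 and 2.62 TPM in spleen, 0, 0.26 and 0.71 in lymph node, 1.26, 2.69 and 0.84 in liver, and 4.05, 4.87 and 9.08 in lung. Lung was thus the next organ after bone marrow and above blood with no overlap, while spleen, blood and liver overlapped along the order. Ctsg was listed at 0 in every spleen and liver library, at 0, 0.11 and 0 TPM in lymph node, and at 0, 0 and 7.78 in lung. The 7.78 of lung replicate 3 was 6.31% of the bone marrow mean, while the other two lung libraries listed the gene at 0. Elane ranged from 0 to 3.07 and Prtn3 from 0 to 4.47 TPM over the 12 libraries, and for both the 4 solid organs overlapped along the order of their means.

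Among the secondary genes, blood was not set apart except for Lcn2. Ltf stood at 23.11, 20.26 and 24.07 TPM in spleen, 0.25, 1.63 and 3.98 in lymph node, 30.09, 27.41 and 17.41 in liver, and 28.37, 56.3 and 65.31 in lung. Lung, blood, liver and spleen overlapped along the order, and lymph node lay below all of them. Camp stood at 35.04, 25.93 and 25.26 TPM in spleen, all above the blood libraries, at 0, 1.54 and 2.79 in lymph node, at 7.69, 7.06 and 5.51 in liver, and at 5.11, 3.45 and 27.2 in lung. Lung replicate 3 again stood far above the other two lung libraries. Ngp stood at 75.25, 48.6 and 51.5 TPM in spleen, which overlapped with blood, at 0.17, 4.25 and 7.68 in lymph node, at 28.96, 21.86 and 24.27 in liver, and at 23.89, 35.89 and 44.62 in lung. Lcn2 stood at 22.8, 15.3 and 20.89 TPM in spleen, 0, 1.54 and 2.6 in lymph node, 14.9, 7.89 and 15.94 in liver, and 19.41, 16.14 and 27.67 in lung.

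By stage medians, the tertiary genes showed the widest gap between blood and each solid organ, although against lymph node the single largest difference was that of Lcn2 (6.48, against 6.45 for Mmp8 and 6.17 for Mmp9). Mmp8 stood at 0.98, 1.84 and 1.17 TPM in spleen, 0.15, 0.15 and 0.18 in lymph node, 2.51, 0.57 and 0.33 in liver, and 0.93, 1.56 and 5.17 in lung. Mmp9 stood at 9.28, 8.25 and 6.71 TPM in spleen, 3.36, 4.73 and 4.19 in lymph node, 24.53, 10.31 and 7.95 in liver, and 6.61, 8.11 and 10.1 in lung. Mmp9 had the highest lymph node level of the members relative to bone marrow in each library, while the primary genes were at or near 0 there. On the log2(TPM + 1) scale, blood minus spleen, lymph node, liver and lung had tertiary medians of 5.40, 6.31, 5.22 and 5.16. The primary medians were 0.66, 1.53, 1.16 and 0.37 and the secondary medians 0.26, 3.84, 1.34 and 1.00. The 4 differences share the blood libraries.

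Single libraries stood apart in 2 organs. Lymph node replicate 1 listed 6 of the 10 genes at 0 and had a summed level of 3.93 TPM, of which 89.3% was tertiary, against a highest sum of 23.4 in that group. Lung replicate 3 had the highest level of the 3 lung libraries for all 10 genes. Its median level over the members was 1.53% of the bone marrow mean, against 0.44% and 0.699% in lung replicates 1 and 2. In blood the same median was 1.25%, 1.498% and 1.11%, and in spleen 0.872%, 0.844% and 0.81%.

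**Figure D4:**
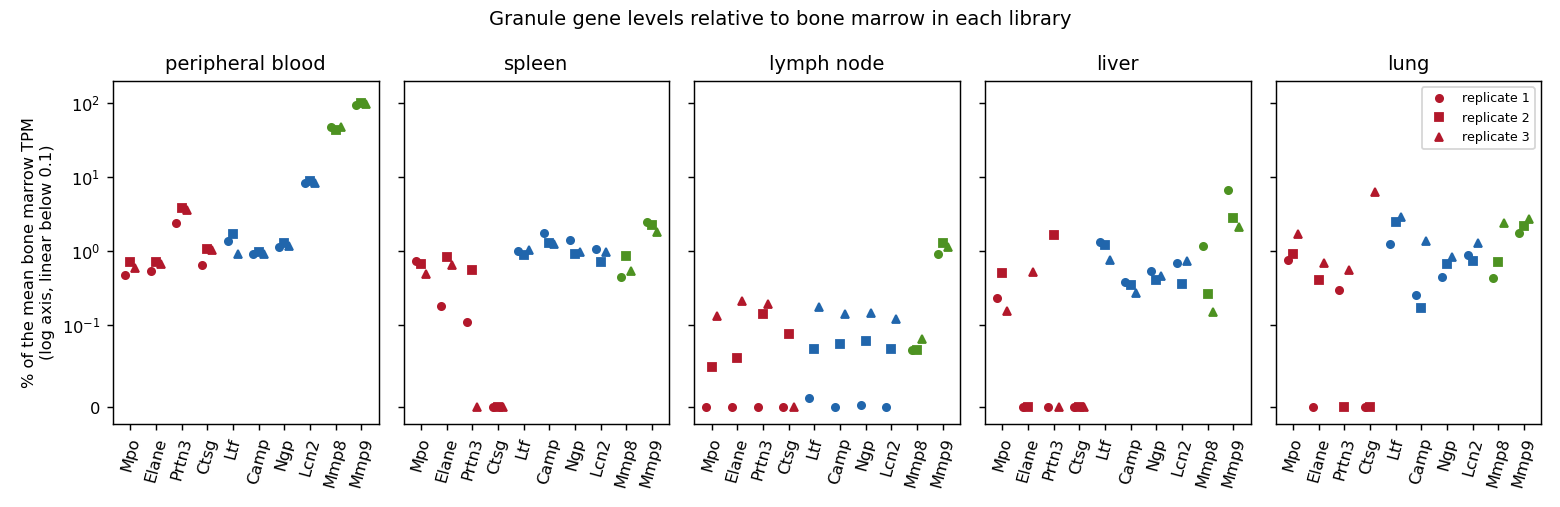
TPM of each of the 10 genes as a percentage of its bone marrow mean (y axis, logarithmic above 0.1 and linear below) in each library of the other 5 organs, with the replicate as the symbol and the stage in color. Mmp9 in blood lies at 95.0% to 100.3%, Mpo in blood at 0.484% to 0.712%, and lung replicate 3 stands above the other two lung libraries.

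Across the 18 libraries the members varied together within a stage more closely than across the primary and tertiary stages. These correlations of log2(TPM + 1) are descriptive: the points share 6 organs, and bone marrow alone sets much of each value. Mmp8 and Mmp9 had Pearson's r of 0.98, and Camp and Ngp also 0.98. Mpo had r of 0.96 with both Elane and Ctsg and 0.66 with Mmp9, the lowest value of the matrix. Lcn2 and Prtn3 had the highest r with Mmp9 in their sets, at 0.90 and 0.84. Neighboring stages were not set apart by these values. Mpo also had r of 0.96 with each of Ltf, Camp and Ngp. Lcn2 had r of 0.93 with Mmp8, against 0.91 with Ltf, 0.92 with Camp and 0.95 with Ngp.

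Genes outside the list with the most similar pattern were ranked by Pearson's r with the stage mean over the 18 libraries, among 10279 genes whose highest group mean was 10 TPM or more. For the primary stage they were 4930438A08Rik (r = 0.98), Epx (0.98), which encodes eosinophil peroxidase, Ear6 (0.97), Rag1 (0.97), which cuts antigen receptor genes in lymphocyte precursors, and Cldn15 (0.97). Epx averaged 13.9 TPM in bone marrow and 0.143 in blood, and Rag1 10.6 and 0.75. For the secondary stage they were Car2 (0.94), a carbonic anhydrase, Olfm4 (0.94), a specific granule gene, the basophil protease genes Mcpt8 (0.93) and Prss34 (0.93), and Itgb2l (0.93). For the tertiary stage they were Mrgpra2b, Scrg1, Ceacam1, Clec12a and Hk3, all at r = 0.98. Ceacam1 averaged 78.2 TPM in blood and 58.3 in bone marrow, and Hk3, a hexokinase, 57.2 and 76.5. None of the 5 genes of any stage remained among the first 5 by Spearman's rho, and 3, 1 and 2 of them did by Pearson's r over the 6 group means.

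Other neutrophil genes, in 7 lists that hold no member, were tested between bone marrow and blood with limma, adjusted over all 16694 genes (Benjamini-Hochberg, threshold 0.05). The lists, like the members, were chosen with earlier results of these data known, so their calls are not independent of the members. Of all genes 18.8% were called higher and 13% lower in bone marrow. Of the 71 list genes tested, out of 73, 24 were higher, 25 lower and 22 not called, with a median difference of -0.05. With the T cell scaling the split over all genes went from 3132 higher and 2176 lower to 1371 higher and 5456 lower, and that of the 7 lists to 16 higher and 35 lower.

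Of the 6 other azurophil granule genes tested, 3 were higher and 2 lower in bone marrow (median 0.45), and Bpi was listed at 0 throughout. Ms4a3, a marker of granulocyte and monocyte progenitors, rose from 0.08 ± 0.139 TPM in blood to 57.8 ± 1.13 in bone marrow (log2 difference 5.77, SE 0.45, adjusted p = 8.45e-08). Cd63, a granule membrane tetraspanin, was higher by 1.42 (adjusted p = 0.0078, and 0.19 at a pseudocount of 0.1). Ctsc, the protease that activates elastase, cathepsin G and proteinase 3, was lower in bone marrow, at 48.6 ± 4.18 against 151 ± 10.9 TPM (difference -1.61, adjusted p = 2.2e-06). Srgn, the proteoglycan that holds granule proteases, was also lower (difference -0.53, adjusted p = 1.9e-08). The activating protease thus had the opposite direction to the 3 proteases it acts on. Both Ctsc and Srgn were also present in lymph node, at means of 54.5 and 699 TPM, where the primary granule genes were at or near 0.

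Of the 7 neutrophil lists, that of the 8 other specific granule genes was the only one called in a single direction by this fit, 5 higher and 0 lower in bone marrow (median 1.66). Fcnb, a ficolin, rose from 1.90 ± 1.62 TPM in blood to 123 ± 3.84 (difference 5.56, SE 0.38, adjusted p = 1.9e-08). Chil3, a chitinase-like protein, rose from 170 ± 13.1 to 1120 ± 25.3 TPM (difference 2.72, adjusted p = 3.3e-06), Olfm4 by 2.70 (adjusted p = 2.4e-06) and Cd177, a surface protein of neutrophils, by 2.29 (adjusted p = 5.1e-06). At an unadjusted p under 0.05 the counts were 7 and 0. Hp, haptoglobin, was at 498 ± 19.9 TPM in blood and 418 ± 5.22 in bone marrow and was not called (adjusted p = 0.73), but was called lower with bone marrow and blood alone in the fit (adjusted p = 0.0011). Differences in this list thus ran from the size seen for Ctsg down to slightly below that of Mmp9.

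Of 8 other genes of gelatinase granules and secretory vesicles, 2 were higher, 3 lower and 3 not called (median -0.53). The lower count was 5 with the T cell scaling or with bone marrow and blood alone in the fit, and 1 at a pseudocount of 0.1. Mmp25, a membrane-bound metalloproteinase, was higher in bone marrow, at 26.9 ± 0.793 against 7.33 ± 0.485 TPM (difference 1.75, adjusted p = 1.4e-05). Adam8 was higher by 0.59 (adjusted p = 0.01, and 0.75 with the T cell scaling). Slc11a1, a metal transporter, was lower, at 28.1 ± 1.11 against 105 ± 6.59 TPM (difference -1.86, adjusted p = 0.0028, and 0.12 at a pseudocount of 0.1), as was Fcgr3 (difference -1.50, adjusted p = 0.00031). Itgam, the alpha chain of the integrin Mac-1, was lower by this fit (difference -0.82, adjusted p = 0.0205), but lost its call without any one of the 6 libraries (adjusted p between 0.0515 and 0.0578). The formyl peptide receptor genes Fpr1 and Fpr2 had differences of -0.24 and 0.06 and were not called.

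Among 12 transcription factors of granulocyte development, 5 were higher and 6 lower in bone marrow (median -0.58), or 3 and 7 with the T cell scaling. Cebpe, which drives secondary granule genes, rose from 6.62 ± 0.976 TPM in blood to 72.7 ± 8.09 (difference 3.28, SE 0.33, adjusted p = 1.4e-06). Gfi1 was higher by 1.93 (adjusted p = 6.3e-06) and Myb by 2.35 (adjusted p = 7.3e-10). Cebpe was near 0 outside these 2 organs, with means from 0 to 1.18 TPM, whereas Gfi1 and Myb had means of 25.2 and 30.0 in lymph node. Cebpa, which acts at the start of the lineage, was lower in bone marrow, at 16.5 ± 2.23 against 53.8 ± 3.01 TPM (difference -1.65, adjusted p = 1.75e-05). Spi1, which encodes PU.1, was lower (difference -1.41, adjusted p = 0.00058), as was Rara (difference -1.27, adjusted p = 7.65e-06). Spi1 is also a monocyte gene, and 10 of 11 monocyte and macrophage genes were lower in bone marrow, and their part in its value was not tested.

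Of the 6 NADPH oxidase genes, whose complex makes the superoxide that feeds myeloperoxidase, 2 were higher and 2 lower. Cybb, the catalytic subunit, was lower, at 150 ± 4.15 against 269 ± 11.5 TPM (difference -0.83, adjusted p = 0.0014). Without any one of the 6 libraries 1 gene of this list was called lower in place of 2. Rac2 and Ncf4 were higher by 0.58 and 0.55 (adjusted p = 0.00024 and 0.0096), and neither was called with the T cell scaling (adjusted p = 0.63 and 0.84).

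The 22 receptors and cytosolic proteins of maturing and circulating neutrophils were lower in bone marrow for 10 genes and higher for 5 (median -0.33). Csf3r fell to 145 TPM in bone marrow from 730 in blood (difference -2.32, SE 0.40, adjusted p = 0.00032). Cxcr2, the chemokine receptor of released neutrophils, was at 56.2 ± 1.96 against 249 ± 8.73 TPM (difference -2.13, adjusted p = 0.00015). Il1b, a cytokine gene of neutrophils and monocytes, was at 213 ± 0.954 against 1576 ± 39.1 TPM (difference -2.88, adjusted p = 2.2e-05), and Clec4d was lower with a difference of -2.47 (adjusted p = 2.2e-06). Wfdc21 was higher in bone marrow (difference 2.18, adjusted p = 1.9e-05). S100a9, the partner of S100a8, had a difference of 1.19 (adjusted p = 0.033), which was not called without any one of the 6 libraries (0.0737 to 0.0826), and S100a8 itself was not called (0.84, adjusted p = 0.072). Without any one library 3 or 4 genes of this list were called higher in place of 5, with the T cell scaling 2 higher and 12 lower, and with bone marrow and blood alone in the fit 9 higher and 12 lower.

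Of 9 protease inhibitor genes tested, out of 10, 2 were higher and 2 lower. The higher count was 1 without bone marrow replicate 1 or 3 or blood replicate 1 or 2, and 3 without blood replicate 3, and the lower count was 5 with the T cell scaling, 4 with library weights and 3 without blood replicate 1. Both counts were 1 at a pseudocount of 0.1. Serpinb1a, an inhibitor of elastase, cathepsin G and proteinase 3, was higher in bone marrow with its targets, at 113 ± 8.76 against 32.9 ± 4.37 TPM (difference 1.75, adjusted p = 0.0002). Slpi, another inhibitor of elastase and cathepsin G, was lower, at 224 ± 10.3 against 787 ± 19.9 TPM (difference -1.81, adjusted p = 0.0016). Stfa2l1, a stefin, was lower (difference -1.92, adjusted p = 0.0021, and 0.2 at a pseudocount of 0.1), but the stefin genes are near-identical copies among which reads can be split. Timp1, the inhibitor of MMP9, stayed below the filter, at 0.23 ± 0.0889 TPM in blood and 0.703 ± 0.222 in bone marrow.

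**Figure D5:**
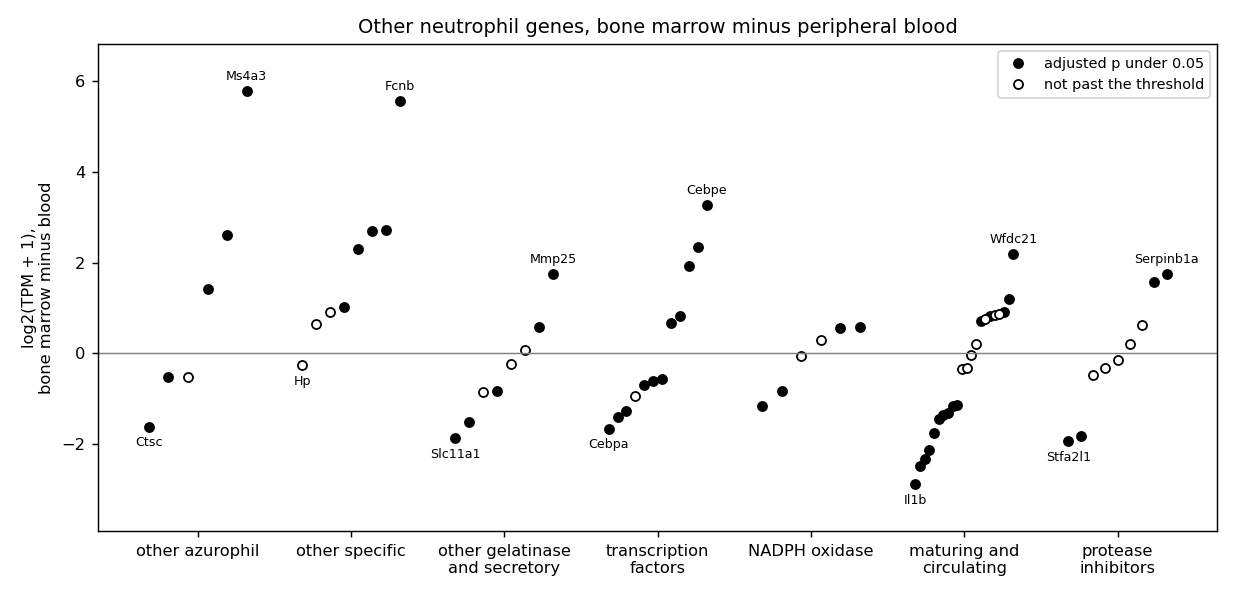
Difference in log2(TPM + 1) between bone marrow and blood (y axis) for each tested gene of the 7 neutrophil lists (x axis), filled where the adjusted p from limma was under 0.05. The ends of each list except NADPH oxidase are named, and the other specific granule genes have 5 genes called higher and 0 called lower.

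Markers of other cells and of cell division also differed between the 2 organs. The part of these cells in the values of the members and of the genes in the 7 neutrophil lists was not tested. All 12 cell division genes were higher in bone marrow (median 3.54), with a summed level of 990 to 1026 TPM against 190 to 203 in blood. All 8 erythroid genes were higher, with sums of 6524 to 6719 against 2833 to 2999 TPM, among them Klf1 (difference 4.71) and Car2 (4.58). Of 11 monocyte and macrophage genes 10 were lower, with sums of 710 to 743 TPM against 2072 to 2120 in blood, among them Fn1 (-3.48), Cx3cr1 (-3.36) and Csf1r (-3.003). All 7 platelet genes were lower, with sums of 71.35 to 82.77 against 2209 to 2244 TPM.

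Granule genes of other granulocytes went partly with the members. Of 9 eosinophil genes 5 were higher and 3 lower, with sums of 299 to 314 TPM in bone marrow and 164 to 170 in blood. Prg2, the eosinophil major basic protein, rose from 0.223 ± 0.268 to 177 ± 5.24 TPM (difference 7.21, adjusted p = 6.3e-08), and Epx by 3.70 (adjusted p = 1.7e-10). The 3 lower genes were Ear2, a granule ribonuclease gene with close copies, at 53.8 ± 3.54 against 147 ± 1.83 TPM (difference -1.44, adjusted p = 0.0048), and the receptor genes Siglecf and Il5ra (differences -1.04 and -1.33, adjusted p = 0.0057 and 0.0031), so granule genes of this list lay in both directions. Of 7 basophil and mast cell genes tested, 2 were higher and 3 lower, with sums of 172 to 190 TPM in bone marrow and 45.0 to 59.4 in blood. The basophil proteases Prss34 (difference 5.04) and Mcpt8 (3.32) were higher. Lower were Cma1, a mast cell granule protease, at 0.09 ± 0.156 against 10.3 ± 1.09 TPM (difference -3.38, adjusted p = 4.7e-08), and Ms4a2 and Fcer1a, which encode chains of the IgE receptor (differences -1.05 and -0.87, adjusted p = 0.0021 and 0.0385). Ear2, Siglecf, Il5ra, Ms4a2 and Fcer1a were added to the named genes after their values were seen.

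The remaining lists were mixed. Of 6 progenitor genes 2 were higher, Kit among them (difference 2.46), and 2 lower, with sums of 47.6 to 51.0 TPM in bone marrow and 56.0 to 59.0 in blood. Of 8 B cell genes 2 were higher, the pre-B cell genes Igll1 (4.64) and Vpreb1 (3.81), 1 was lower, Ms4a1 (-1.18), and the sums overlapped, at 502 to 545 and 534 to 560 TPM. Of 8 Treg genes 5 were higher and 2 lower, with sums of 1123 to 1138 against 592 to 601 TPM.

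Between blood and the 4 solid organs, the 7 neutrophil lists were higher in blood for most genes. Of 71 genes, 59 were higher and 3 lower in blood than in spleen, where 20.1% and 15.3% of all genes were. Against lymph node they were 61 and 3 (16.4% and 21.0% of all genes), against liver 59 and 6 (23.3% and 16.1%), and against lung 56 and 7 (26.4% and 17.3%). The 22 genes of maturing and circulating neutrophils had medians of 5.03, 6.01, 6.0 and 3.46 and the 8 other gelatinase and secretory genes of 4.82, 6.25, 5.60 and 2.34, against spleen, lymph node, liver and lung in turn. The 6 other azurophil genes had medians of 0.73, 0.91, 0.78 and 0.93. The genes lower in blood were Gfi1 in all 4 comparisons, Myb and Rac2 in 3 each, Srgn, Runx1, Cxcr4 and Ccrl2 against liver and lung, and Chil3 against lung, named here after their values were seen. Monocyte genes differed the same way, 11 of 11 higher in blood in all 4 comparisons, and platelet genes 7 of 7, and their part in these differences was not tested.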

How the data were processed

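Poly(A) RNA from sorted Treg cells of 6 organs was sequenced in 18 libraries with a strand-marking kit, per the labels' protocols. For each library the authors deposited the TPM of 55487 Ensembl genes, a level per transcript length scaled to 1 total. The submitters' processing notes name STAR, RSEM and mm10, without versions, and the annotation and strand setting are not given in the sources used here. Gene symbols came from GENCODE M21 names for 55141 IDs. TPM keeps no depth, so the value of 1 read was estimated from the steps between low values (70.6% to 90.2% of values up to 8 reads were whole within 0.1 read). No 2 replicates were identical, and replicate pairs differed by 2.3 to 8.59 times counting noise.

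Groups were compared with limma 3.58.1 (R 4.3.3) on log2(TPM + 1), 1 mean per group over all 18 libraries, trended and robust, for 16694 genes whose highest group mean was 1 TPM or more, with Benjamini-Hochberg adjustment and a threshold of 0.05. The code was tested on simulated data. The members and lists were chosen with earlier results of these data known. From each neutrophil list up to 6 called genes, at most 4 per direction, those with the largest differences and a higher group mean of 10 TPM or more, are named, and up to 3 from each other list. Alternatives were the pseudocount (0.1), the filter (5 TPM or none), scaling to 20 T cell genes, removal of neutrophil genes from the total, library weights, only the groups compared, a replicate block, and leaving out each library. Promoter windows came from RefSeq (GRCm38.p6). Single list genes not named in the text are not reported here.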

Additional observations from a re-analysis of the deposited data

How the results depend on the processing

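Of the alternatives for the genes named from the lists, 784 kept the direction and the side of the threshold and 28 lost the call, none turned. These genes were named for being called with the largest differences in the main fit, which favors a kept call. The count of genes called between bone marrow and blood, 3132 higher and 2176 lower, became 1371 and 5456 with the T cell scaling, 5472 and 3458 with library weights, and 5159 and 3319 with bone marrow and blood alone in the fit. With the T cell scaling, neutrophil list genes lower in blood numbered 0, 1, 1 and 4 against spleen, lymph node, liver and lung. Lower in blood among all 17024 genes tested were then 369, 289, 742 and 1173 in turn. Without that scaling they were 2550, 3504, 2693 and 2881 of 16694, so the fall ran through all genes. The stage medians of bone marrow minus blood with that scaling were 6.06 (primary), 5.80 (secondary) and 0.0599 (tertiary). Mmp9 turned to -0.48 on that scale. It divided bone marrow libraries by 0.844 to 0.865 and blood libraries by 0.596 to 0.608, which lowers bone marrow relative to blood. Which scale is closer to the levels in the cells was not tested. The tertiary median was 0.61 with neutrophil genes taken out of the total, and the primary median 6.95 at a pseudocount of 0.1, which weights low blood values more. Leaving out 1 library in turn gave 2494 to 2625 genes higher and 1793 to 1882 lower in bone marrow, 20 to 23 and 22 to 24 neutrophil list genes, and stage medians of 6.22 to 6.39, 6.17 to 6.42 and 0.55 to 0.57. Members with all bone marrow libraries highest numbered 9, or 10 without bone marrow replicate 2.

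Same-numbered libraries of different groups did not deviate together (mean correlation of deviations 0.01 over 45 pairs). The correlation was -0.01, 0.03 and 0.00 for the bone marrow and blood pairs. A pairing by number was thus not detected, but this check cannot exclude one, because a technical spread would not carry it. With the replicate block 3032 genes were higher and 2113 lower in bone marrow, and 25 and 25 of the neutrophil list genes. TPM without depth leaves levels under about 1 TPM in liver and lung resting on few reads, so zeros there are listings, not absence.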
